A study of Homo sapiens with 9 samples.

Results

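The nuclear genes for the subunits of respiratory complexes II, III, IV and V were followed in AsPC-1 cells, a line established from a human pancreatic adenocarcinoma, in which STOML2 was knocked down. Members were taken by symbol: SDHA, SDHB, SDHC, SDHD and CYC1, and every symbol that starts with UQCR, with COX4 to COX8 or with ATP5. This gave 47 genes, each with 1 row, out of 17709 rows with 1 gene symbol: 3 for complex II, 9 for complex III, 17 for complex IV and 18 for complex V. SDHB and UQCRFS1, the gene of the iron-sulfur protein of complex III, had no such row and are not analysed here. The same holds for ATP5F1E and ATP5MK of complex V. By role, 36 members are subunits used in most tissues, 6 are tissue-restricted isoforms (COX4I2, COX6A2, COX6B2, COX7A1, COX7B2 and COX8C), 2 are an assembly factor and an inhibitor (COX7A2L and ATP5IF1), and 3 are gene copies or a read-through transcript (UQCRHL, ATP5MGL and ATP5MF-PTCD1). UQCRH and UQCRHL are near-identical, so signal could be shared between their probes and both values are uncertain.

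STOML2 encodes stomatin-like protein 2 (SLP-2), which sits at the inner membrane of mitochondria, and the study asked which genes differ when it is suppressed. The sh1 group carried a pBAsi-hU6 NEO plasmid with shRNA-1 against SLP-2, the sh2 group carried the same plasmid with another shRNA against SLP-2, and the control group carried the blank plasmid. Cells of all 3 groups went through 3 weeks of Geneticin, and each group was grown from 1 colony and measured on 3 arrays. Because a group is 1 clone, a difference between clones and an effect of an shRNA cannot be told apart, and the p-values cover no more than the spread among the arrays, and that spread may be technical.

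Complex II, succinate dehydrogenase, passes electrons from succinate to ubiquinone. Complex III passes them from ubiquinol to cytochrome c, and complex IV, cytochrome c oxidase, passes them from cytochrome c to oxygen. Complexes III and IV pump protons across the inner membrane, and complex V, the ATP synthase, lets protons back and makes ATP. Complex II is wholly encoded in the nucleus, while complexes III, IV and V also hold subunits encoded by mitochondrial DNA, which are not analysed here. Cancer cells differ widely in how much they rely on this system, and many keep it active beside glycolysis.

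Promoters are printed for the 4 members called in the same direction in both lines and for ATP5F1C, which had the largest change of any member in either line. They are RefSeq sequences of GRCh38.p14, from 250 bases before the transcription start to 50 after it, written 5′ to 3′ on the strand of the gene. Capitals mark exact matches, on either strand, to CGCATGCG (the core of the NRF1 motif), CCGGAAG (the ETS family, which includes GABPA) or AAGATGGCG (YY1), 3 motifs long associated with respiratory genes. No matches overlapped one another in the promoters printed.
UQCR11, chr19:1605413-1605712, minus strand: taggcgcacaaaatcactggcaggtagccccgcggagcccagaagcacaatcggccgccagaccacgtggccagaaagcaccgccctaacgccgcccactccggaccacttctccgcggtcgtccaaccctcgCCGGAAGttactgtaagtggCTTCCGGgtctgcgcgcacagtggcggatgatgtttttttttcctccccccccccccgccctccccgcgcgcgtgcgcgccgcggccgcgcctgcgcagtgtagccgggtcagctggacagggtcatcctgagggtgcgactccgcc
UQCRQ, chr5:132866392-132866691, plus strand: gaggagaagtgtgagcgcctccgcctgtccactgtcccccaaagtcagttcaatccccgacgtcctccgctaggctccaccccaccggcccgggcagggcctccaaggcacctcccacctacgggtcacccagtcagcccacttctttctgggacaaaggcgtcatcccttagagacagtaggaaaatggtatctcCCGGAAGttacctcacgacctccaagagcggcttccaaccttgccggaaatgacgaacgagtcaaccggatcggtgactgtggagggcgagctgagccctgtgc
COX7B, chrX:77899218-77899517, plus strand: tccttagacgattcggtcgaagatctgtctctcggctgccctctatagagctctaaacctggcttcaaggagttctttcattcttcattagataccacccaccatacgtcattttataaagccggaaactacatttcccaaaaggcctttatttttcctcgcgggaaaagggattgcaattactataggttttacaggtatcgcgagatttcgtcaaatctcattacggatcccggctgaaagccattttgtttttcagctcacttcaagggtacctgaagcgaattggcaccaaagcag
ATP5IF1, chr1:28235874-28236173, plus strand: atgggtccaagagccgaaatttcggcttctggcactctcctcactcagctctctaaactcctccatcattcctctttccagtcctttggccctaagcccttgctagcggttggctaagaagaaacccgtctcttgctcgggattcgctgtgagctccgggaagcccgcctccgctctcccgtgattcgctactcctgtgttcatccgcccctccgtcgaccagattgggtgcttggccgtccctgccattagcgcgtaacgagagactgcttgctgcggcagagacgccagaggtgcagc
ATP5F1C, chr10:7787927-7788226, plus strand: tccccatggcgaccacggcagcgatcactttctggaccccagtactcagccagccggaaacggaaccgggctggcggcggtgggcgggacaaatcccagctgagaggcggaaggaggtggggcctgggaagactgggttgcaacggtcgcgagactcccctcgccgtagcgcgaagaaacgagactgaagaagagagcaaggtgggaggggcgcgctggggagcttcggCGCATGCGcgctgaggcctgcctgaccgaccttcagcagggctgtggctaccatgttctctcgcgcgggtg

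UQCR11 held 2 ETS matches, one on each strand, UQCRQ held 1 ETS match and ATP5F1C held 1 NRF1 match, while COX7B and ATP5IF1 held none of these letters in this window. Of the 47 members, 34 had a promoter in the RefSeq table. The ETS motif was present in 13 of the 34 (38.2%), against 10.7% of all 27305 promoters in the table. The NRF1 core was present in 6 (17.6%, against 2.19%): ATP5F1C, ATP5MC2, ATP5ME, ATP5PF, COX6A1 and SDHD. A stricter form with 1 more base at each end (G before, C after), which was searched first, was present in 2 (5.88%, against 1.36%), ATP5F1C and SDHD. YY1 was present in 2 (5.88%, against 1.85%), in ATP5PF and UQCRC1. The ETS motif was found in 5 of the 12 members with a promoter that fell in either line and in 8 of the other 22. A match describes letters in the window and shows no binding.

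Signals are the deposited log2 values, in which 1 unit is a doubling, and array medians lay between 6.57 and 6.65. STOML2 had 8.36, 8.42 and 8.18 in sh1 and 7.85, 7.99 and 7.35 in sh2, against 13.70, 13.66 and 13.65 in the control, so the target was low in both lines. All 8 epithelial markers were above 4.21, the lower quartile of row means used here as a stand-in for background, in every group. Their log2 summed signal was 17.62 to 17.73 in sh1 and 17.67 to 17.79 in sh2, against 17.28 to 17.40 in the control. Single markers moved further than these sums, which are carried by the strongest signals. EPCAM changed by 4.94 in sh1 and 0.74 in sh2, CDH1 by 2.03 in sh1 and -0.52 in sh2, and KRT19 by -1.69 in sh1 and -0.57 in sh2, all called, and CLDN4, KRT18 and KRT8 rose in both lines. The 6 mesenchymal markers summed to 15.62 to 15.79 in sh1 and 16.32 to 16.54 in sh2, against 16.51 to 16.57 in the control. CDH2 fell to 6.81 ± 0.33 in sh1 and 5.84 ± 0.21 in sh2, against 11.92 ± 0.07 in the control (SD, n = 3 each), with changes of -5.11 and -6.08. The changes of COL1A1 were -3.19 (sh1) and -3.48 (sh2) and those of COL1A2 were -1.18 and -1.16, all called, while VIM fell in sh1 (-0.76) and differed by -0.05 in sh2. Leukocyte markers, 3 of 4 measured, summed to 6.09 to 6.48 in sh1 and 6.22 to 6.37 in sh2, against 6.47 to 7.07 in the control. The 3 endothelial markers summed to 6.71 to 7.03 in sh1 and 6.55 to 6.82 in sh2, against 6.60 to 6.70 in the control. LUM and PECAM1 were under the lower quartile in all groups, PTPRC was under it in sh1 and sh2, and DCN was under it in sh1. The part of these marker differences in the results below was not tested. In RNA from bulk cells, fewer cells that express a gene and less RNA per cell cannot be told apart.

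More members fell than rose in both lines, the falls were mostly modest, and the genes that fell overlapped only in part. In sh1, 10 of the 47 members fell and 2 rose (limma, adjusted p under 0.05), while over all 21448 rows 9.0% fell and 9.76% rose. In sh2, 9 fell and 1 rose, against 7.98% and 8.33% of all rows. UQCR11, UQCRQ and COX7B fell in both lines, and these 3 of 47 are a share near the 4.65% of all rows that did so. ATP5IF1 was the 1 member that rose in both, a share under the 4.28% of all rows that did so. Both lines are set against the same control arrays, so their changes are not independent. Without control array 1, 5 members fell in sh1 and 5 in sh2, and without sh1 array 2, 6 fell in sh1.

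The median change over the 47 members was -0.19 in each line, against 0.02 over all rows in each line. Changes were below 0 for 34 members in sh1 and 36 in sh2, and for 29 in both, against 47.2% of all rows in sh1 and 47.5% in sh2. The 3 arrays of sh1 all lay below the 3 control arrays for 21 members and above them for 3, against 16.4% and 18.2% of all rows. The arrays of sh2 lay below the control arrays for 20 members and above them for 2, against 15.4% and 17.1%. Members tend to have strong signals, and 40 of the 47 are among the 10722 rows above the median of row means. Of those rows, 14.3% fell in sh1 and 12.9% in sh2. The standard error of a member's change had a median of 0.14 and ranged over 0.11 to 0.31, and the smallest change called against the control was -0.38 (UQCR10 in sh1).

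**Figure D1:**
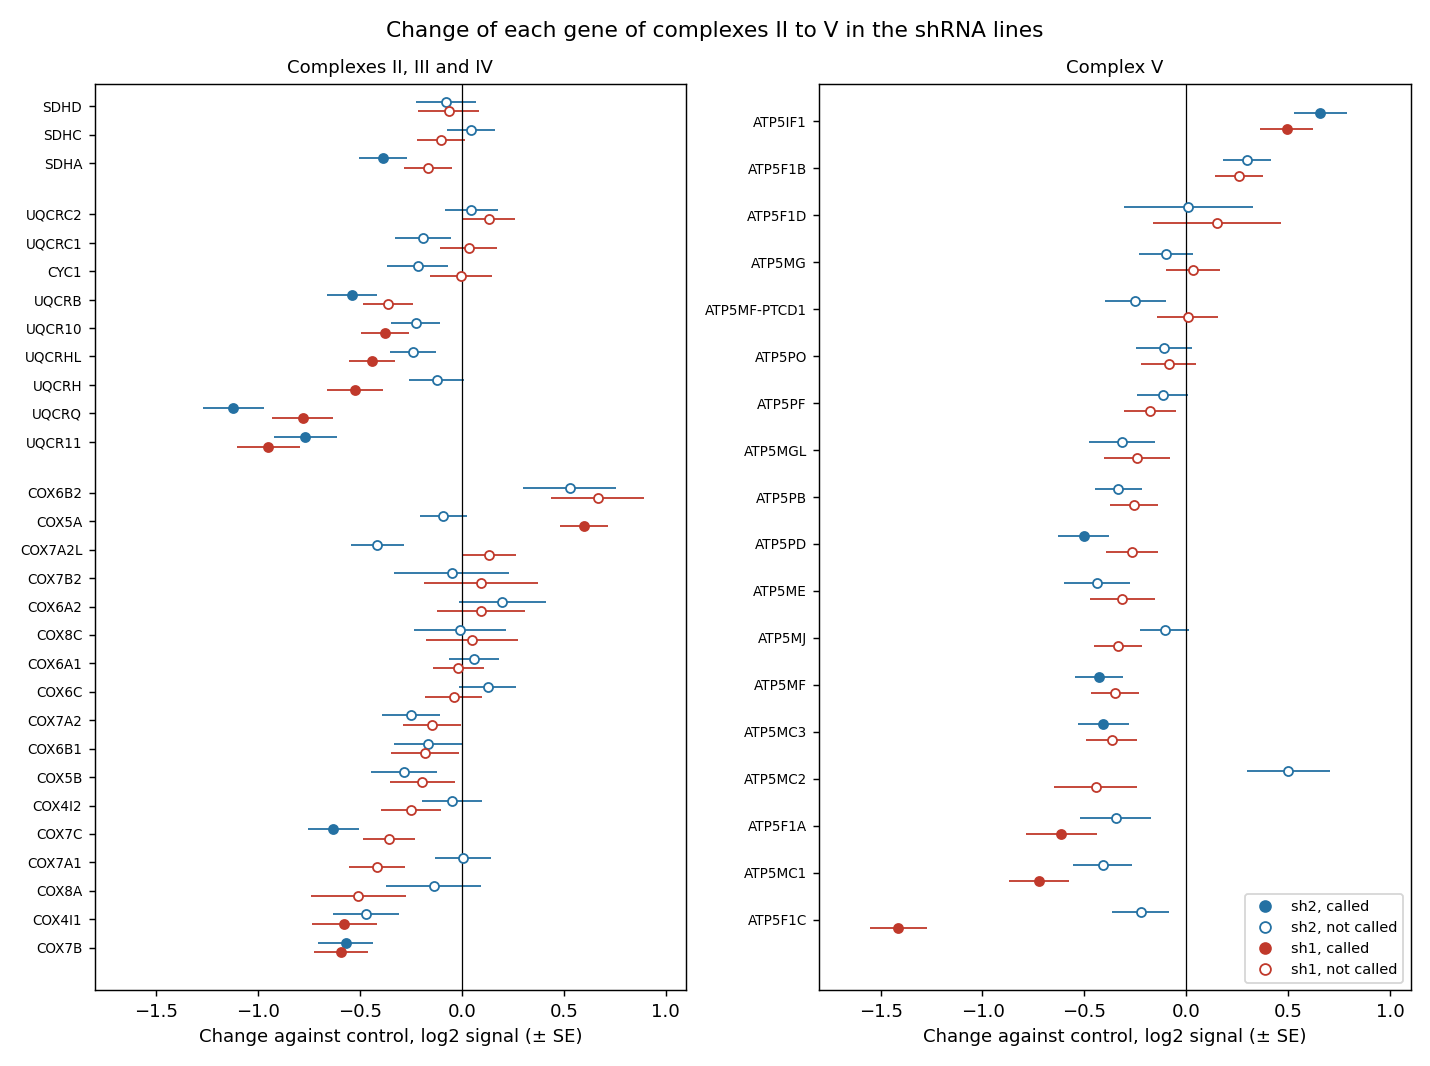
Change of each of the 47 members against the control in log2 units, grouped by complex, with bars for the standard error and filled points for members called at an adjusted p under 0.05 (n = 3 arrays a group). Most points lie left of 0 in both lines, ATP5F1C in sh1 lies at -1.41, and ATP5IF1 lies right of 0 in both.

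In complex II, SDHA was the 1 of 3 measured genes that was called, and it was called in sh2. SDHA, the flavoprotein that oxidises succinate, had 10.88, 10.98 and 10.79 in sh2, against 11.29, 11.18 and 11.34 in the control. The groups did not overlap, and the change was -0.39 ± 0.12 (SE; limma, adjusted p = 0.0445). This call was lost in 8 of the 9 fits that left out 1 array (adjusted p = 0.0596 to 0.134), all but that without sh1 array 2. In sh1, SDHA had 11.11, 11.15 and 11.05, a change of -0.17 (adjusted p = 0.396). The membrane anchors SDHC and SDHD overlapped with the control in both lines. SDHC differed by -0.10 in sh1 and 0.04 in sh2, and SDHD by -0.06 in sh1 and -0.08 in sh2.

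In complex III the genes that fell were those of small accessory subunits and 1 gene copy, and none of the measured core and cytochrome genes (CYC1, UQCRC1 and UQCRC2). Of 9 members, 5 fell in sh1 and 3 in sh2, and 0 rose (0 also at an unadjusted p under 0.05), with medians of -0.38 and -0.23. The falls are 55.6% and 33.3% of the complex, against 9.0% and 7.98% of all rows. Without the copy UQCRHL, 4 of 8 fell in sh1 and 3 of 8 in sh2. The 5 small accessory subunits UQCRB, UQCRH, UQCRQ, UQCR10 and UQCR11 were below the control on every array of both lines. Of these, 4 fell in sh1 and 3 in sh2, with medians of -0.52 and -0.54.

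UQCRQ, a small subunit next to cytochrome b, had 12.25, 12.49 and 12.39 in sh1 and 12.13, 12.19 and 11.79 in sh2, against 13.32, 13.17 and 12.98 in the control. Both lines lay below all control arrays, with changes of -0.78 ± 0.15 (SE; limma, adjusted p = 0.00325) and -1.12 ± 0.15 (adjusted p = 0.00033). UQCR11, the smallest accessory subunit, had 13.21, 12.94 and 13.14 in sh1 and 13.40, 13.29 and 13.15 in sh2, against 14.35, 13.88 and 13.91 in the control. Again no array of either line reached the control, and limma gave changes of -0.95 ± 0.15 (adjusted p = 0.00114, sh1) and -0.77 ± 0.15 (adjusted p = 0.00545, sh2). These 2 calls held in both lines when any 1 array was left out.

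UQCRB, which contributes to the ubiquinone-binding region, had 12.67, 12.80 and 12.65 in sh2, against 13.23, 13.40 and 13.10 in the control, a fall of 0.54 (limma, adjusted p = 0.0114). In sh1 it had 12.87, 12.90 and 12.88, also below all control arrays, but its change of -0.36 was not called (adjusted p = 0.0656). UQCRH, the hinge protein at the cytochrome c1 side, had 12.40, 11.99 and 12.28 in sh1, against 12.87, 12.70 and 12.67 in the control, a change of -0.52 (adjusted p = 0.019). Its near-identical copy UQCRHL had 7.91, 7.84 and 7.82 in sh1, against 8.30, 8.35 and 8.24 in the control, a change of -0.44 (adjusted p = 0.0166). In sh2, neither was called, with UQCRH at 12.57, 12.66 and 12.64 and UQCRHL at 8.04, 8.03 and 8.10. UQCR10, another small accessory subunit, had 10.42, 10.26 and 10.20 in sh1 and 10.50, 10.40 and 10.43 in sh2, against 10.74, 10.64 and 10.63 in the control. Its change was called in sh1 (-0.38, adjusted p = 0.0458) and not in sh2 (-0.23, adjusted p = 0.245). The UQCR10 call was lost in 8 of 9 fits that left out 1 array, all but that without sh1 array 1 (adjusted p = 0.0529 to 0.145). The UQCRH call was lost without control array 1 (0.0795) or sh1 array 2 (0.0653), and the UQCRHL call without control array 1, control array 2 or sh1 array 3 (0.0532 to 0.0594).

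The measured core and cytochrome genes of complex III, CYC1, UQCRC1 and UQCRC2, were not called in either line. CYC1, the gene of cytochrome c1, had group means of 13.83 ± 0.16 in sh1 and 13.62 ± 0.26 in sh2, against 13.84 ± 0.02 in the control (SD, n = 3 each). UQCRC1 and UQCRC2 encode the core proteins on the matrix side. UQCRC1 differed by 0.03 in sh1 and -0.19 in sh2, and UQCRC2 by 0.13 in sh1 and 0.05 in sh2.

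**Figure D2:**
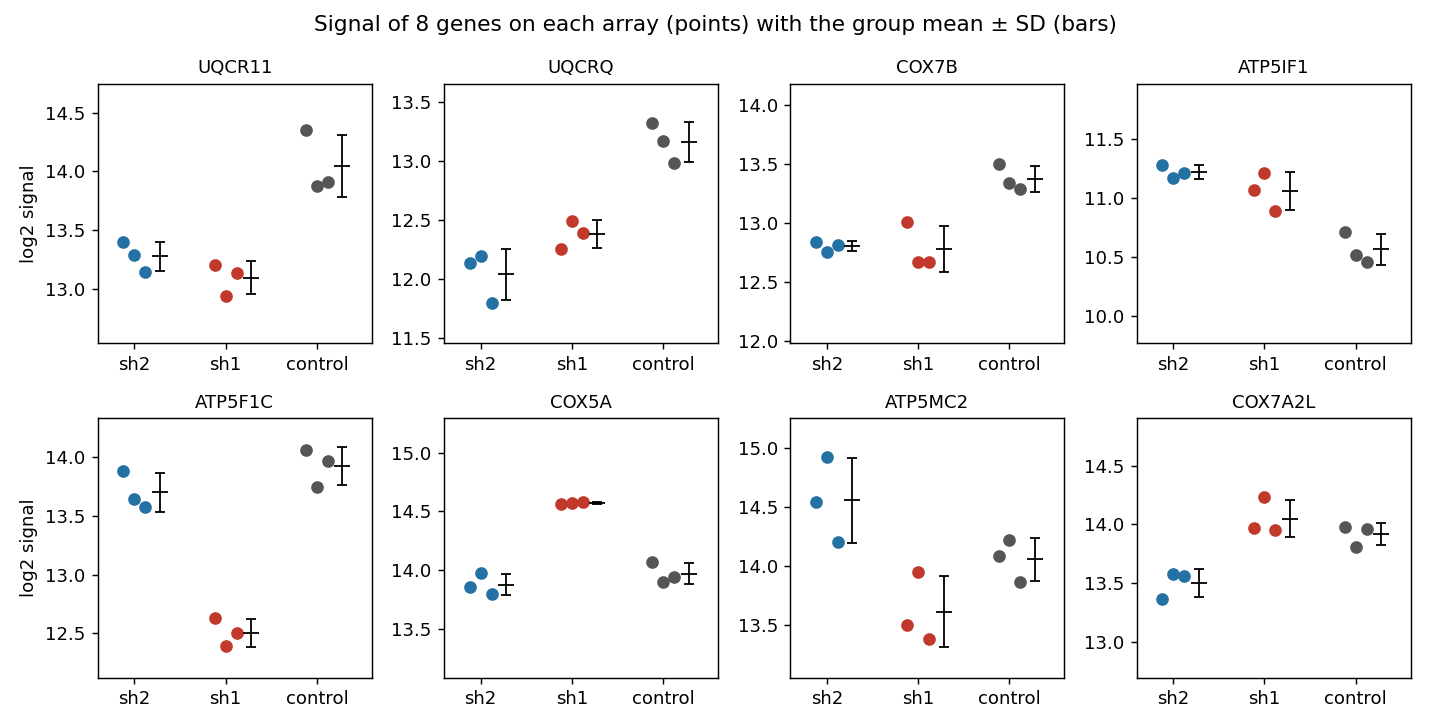
Log2 signal on each array for the 4 members called in the same direction in both lines and the 4 that differed between the lines, with sh2, sh1 and control from left to right in each panel, a point per array and a bar for the mean and SD (n = 3 arrays). UQCR11, UQCRQ and COX7B lie below the control in both lines and ATP5IF1 above it, while for ATP5F1C the sh1 arrays lie below all others.

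In complex IV, COX7B fell in both lines, COX4I1 fell in sh1, COX7C fell in sh2, and COX5A rose in sh1. Of 17 members, 2 fell and 1 rose in sh1 and 2 fell in sh2, with medians of -0.15 and -0.09. The 2 falls are 11.8% of the complex, near the 9.0% and 7.98% of all rows that fell. COX7B, a small subunit needed for assembly of the complex, had 13.01, 12.67 and 12.67 in sh1 and 12.84, 12.76 and 12.82 in sh2, against 13.50, 13.34 and 13.29 in the control. No array of either line overlapped with the control, and the changes were -0.59 ± 0.13 (SE; limma, adjusted p = 0.00864) and -0.57 ± 0.13 (adjusted p = 0.0127). Without control array 1 the sh2 change was -0.51 and was not called (adjusted p = 0.0584).

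COX4I1, the common form of the regulatory subunit that binds ATP, had 10.91, 10.58 and 11.18 in sh1 and 10.89, 11.06 and 11.04 in sh2, against 11.60, 11.32 and 11.48 in the control. Both lines lay below the control, and the change was called in sh1 (-0.58 ± 0.16, limma, adjusted p = 0.0263) and not in sh2 (-0.47, adjusted p = 0.0708). The sh1 call was lost without control array 1, control array 3, sh1 array 1 or sh1 array 2 (adjusted p = 0.0627 to 0.0995). COX7C, another small membrane subunit, had 13.86, 13.79 and 14.03 in sh1 and 13.64, 13.72 and 13.50 in sh2, against 14.35, 14.22 and 14.18 in the control. It too lay below the control on all arrays of both lines, with a call in sh2 (-0.63 ± 0.13, adjusted p = 0.00509) and none in sh1 (-0.36, adjusted p = 0.0741).

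COX5A, a subunit on the matrix side, moved the other way. It had 14.56, 14.57 and 14.58 in sh1 and 13.86, 13.98 and 13.80 in sh2, against 14.07, 13.90 and 13.94 in the control. The sh1 arrays lay above all others, with a change of 0.60 ± 0.12 (SE; limma, adjusted p = 0.00358), and the sh2 arrays overlapped with the control (-0.09, adjusted p = 0.69). COX7A2L, also known as SCAF1, joins complexes III and IV in supercomplexes. It had 13.97, 14.23 and 13.95 in sh1 and 13.37, 13.58 and 13.56 in sh2, against 13.98, 13.81 and 13.96 in the control. The sh2 arrays lay below the rest, but the change of -0.41 against the control was not called (adjusted p = 0.0533), nor was that of 0.13 in sh1.

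The other common subunits of complex IV, COX5B, COX6A1, COX6B1, COX6C, COX7A2 and COX8A, were not called in either line. Without COX8A, their changes lay between -0.19 (COX5B) and -0.02 (COX6A1) in sh1 and between -0.28 (COX5B) and 0.13 (COX6C) in sh2. COX8A had the largest change among them, with 14.00, 13.55 and 13.70 in sh1 and 14.61, 14.00 and 13.75 in sh2, against 14.64, 14.03 and 14.10 in the control. Its arrays were widely spread, and the sh1 change of -0.51 ± 0.23 was not called (adjusted p = 0.171). Of the 6 tissue-restricted isoforms 0 were called (at an unadjusted p under 0.05, 1 was lower and 1 higher in sh1 and 1 higher in sh2), and COX4I2, COX7B2 and COX8C had means under the lower quartile of all rows. COX6B2, the testis form, had 4.53, 5.08 and 4.23 in sh1 and 4.52, 4.22 and 4.69 in sh2, against 3.98, 3.61 and 4.25 in the control. These groups overlapped, and the changes of 0.67 and 0.53 were not called (adjusted p = 0.0666 and 0.155).

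In complex V a few genes were called lower, different ones in each line, and the inhibitor ATP5IF1 was called higher in both. The calls of ATP5F1C and ATP5MC1 held when any 1 array was left out. Those of ATP5F1A, ATP5MC3, ATP5PD and ATP5MF were lost in several such fits, as given below. Of 18 members, 3 fell and 1 rose in sh1 and 3 fell and 1 rose in sh2, with medians of -0.26 and -0.24. The 3 falls are 16.7% of the complex, against 9.0% (sh1) and 7.98% (sh2) of all rows. They are near the 14.3% and 12.9% of rows above the median of row means that fell. The 1 rise is 5.56%, under the 9.76% and 8.33% of all rows that rose. ATP5F1C, the gamma subunit that turns inside the catalytic head, had 12.63, 12.39 and 12.50 in sh1 and 13.88, 13.64 and 13.57 in sh2, against 14.06, 13.74 and 13.96 in the control. The sh1 arrays lay below all others without overlap, with a change of -1.41 ± 0.14 (SE; limma, adjusted p = 2.94e-05), and the sh2 arrays overlapped with the control (-0.22, adjusted p = 0.346).

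ATP5F1A, the alpha subunit of the head, had 12.47, 11.87 and 12.56 in sh1 and 12.63, 12.51 and 12.56 in sh2, against 13.06, 12.87 and 12.81 in the control. Both lines lay below the control, and the change was called in sh1 (-0.61 ± 0.18, limma, adjusted p = 0.03) and not in sh2 (-0.35, adjusted p = 0.23). The sh1 call was lost without any 1 of the control arrays or without sh1 array 2 (adjusted p = 0.0519 to 0.11). ATP5F1B, the catalytic beta subunit, had 16.84, 16.92 and 16.80 in sh1 and 16.97, 16.89 and 16.81 in sh2, against 16.54, 16.70 and 16.54 in the control. Its arrays lay above the control in both lines, but the changes of 0.26 and 0.30 were not called (adjusted p = 0.165 and 0.12). ATP5F1D, the delta subunit of the central stalk, differed by 0.15 in sh1 and 0.01 in sh2, with the widest standard error of any member (0.31).

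ATP5MC1, ATP5MC2 and ATP5MC3 encode the same mature subunit c of the rotor ring. ATP5MC1 had 15.50, 15.23 and 15.27 in sh1 and 15.92, 15.49 and 15.53 in sh2, against 16.11, 16.07 and 15.99 in the control. It lay below the control on all arrays, with a call in sh1 (-0.72 ± 0.15, limma, adjusted p = 0.0045) and none in sh2 (-0.41, adjusted p = 0.083). ATP5MC3 had 12.06, 11.93 and 11.87 in sh1 and 11.94, 11.82 and 11.98 in sh2, against 12.39, 12.17 and 12.40 in the control. It also lay below the control on all arrays, with a call in sh2 (-0.41, adjusted p = 0.0465) and none in sh1 (-0.37, adjusted p = 0.0646). The sh2 call was lost in 8 of 9 fits that left out 1 array, all but that without control array 2 (adjusted p = 0.0525 to 0.147). ATP5MC2 had 13.50, 13.95 and 13.38 in sh1 and 14.54, 14.92 and 14.20 in sh2, against 14.08, 14.22 and 13.86 in the control. Neither change of ATP5MC2 was called, with -0.44 in sh1 (adjusted p = 0.171) against 0.50 in sh2 (adjusted p = 0.131).

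ATP5PD, a subunit of the peripheral stalk that holds the head still, had 13.34, 13.54 and 13.40 in sh2, against 13.89, 14.02 and 13.88 in the control, a change of -0.50 ± 0.13 (SE; limma, adjusted p = 0.0176). In sh1 it had 13.77, 13.71 and 13.51 and was not called (-0.27, adjusted p = 0.183). ATP5MF, a small membrane subunit, had 15.64, 15.51 and 15.68 in sh2, against 16.09, 15.99 and 16.03 in the control, a change of -0.43 ± 0.12 (adjusted p = 0.0285). In sh1 it had 15.79, 15.64 and 15.63, also below the control, and was not called (-0.35, adjusted p = 0.0617). The ATP5PD call was lost without control array 2, sh2 array 1 or sh2 array 3 (0.0525 to 0.067), and that of ATP5MF without any 1 of the control arrays, sh2 array 1 or sh2 array 2 (0.0534 to 0.102). The other measured stalk and membrane subunits (ATP5PB, ATP5PF, ATP5PO, ATP5ME, ATP5MG and ATP5MJ) were not called. Their changes were -0.33 (ATP5MJ) to 0.03 (ATP5MG) in sh1 and -0.44 (ATP5ME) to -0.10 (ATP5MG) in sh2. The copy ATP5MGL differed by -0.24 in sh1 and -0.32 in sh2, and the read-through ATP5MF-PTCD1 by 0.01 in sh1 and -0.25 in sh2, with no calls.

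ATP5IF1, the inhibitor that blocks ATP hydrolysis by the synthase, was the only member called higher in both lines in the main fit. It had 11.07, 11.21 and 10.89 in sh1 and 11.28, 11.17 and 11.21 in sh2, against 10.71, 10.52 and 10.46 in the control. Both lines lay above all control arrays, with limma changes of 0.49 ± 0.13 (SE; adjusted p = 0.0209, sh1) and 0.66 ± 0.13 (adjusted p = 0.00494, sh2). The sh1 call was lost without control array 2, control array 3, sh1 array 1 or sh1 array 2 (adjusted p = 0.0595 to 0.0767), while the sh2 call held when any 1 array was left out.

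Summarised per array, complexes III and V were below the control in both lines. The median deviation of its 9 members from their control means was -0.35, -0.41 and -0.47 on the sh1 arrays and -0.18, -0.27 and -0.41 on the sh2 arrays, against 0.03, 0.01 and -0.08 on the control arrays. For complex V it was -0.16, -0.26 and -0.32 in sh1 and -0.14, -0.26 and -0.23 in sh2, against 0.09, -0.04 and -0.06 in the control. In both complexes each shRNA array lay below each control array. For all 17 members of complex IV the values were -0.19, -0.10 and -0.15 in sh1 and -0.02, -0.13 and -0.32 in sh2, against 0.12, -0.04 and -0.10 in the control, and the arrays of both lines overlapped with the control. This overlap depended on including the tissue-restricted isoforms and COX7A2L. Over the 10 common subunits alone the values were -0.26, -0.12 and -0.26 in sh1 and -0.11, -0.20 and -0.42 in sh2. The control arrays were then at 0.13, -0.04 and -0.095, so each shRNA array lay below each control array. For the 3 genes of complex II they were -0.23, -0.03 and -0.17 in sh1 and -0.14, -0.04 and -0.04 in sh2, against -0.04, -0.02 and 0.07 in the control. These medians are descriptions with no test, since the members were chosen with results known.

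**Figure D3:**
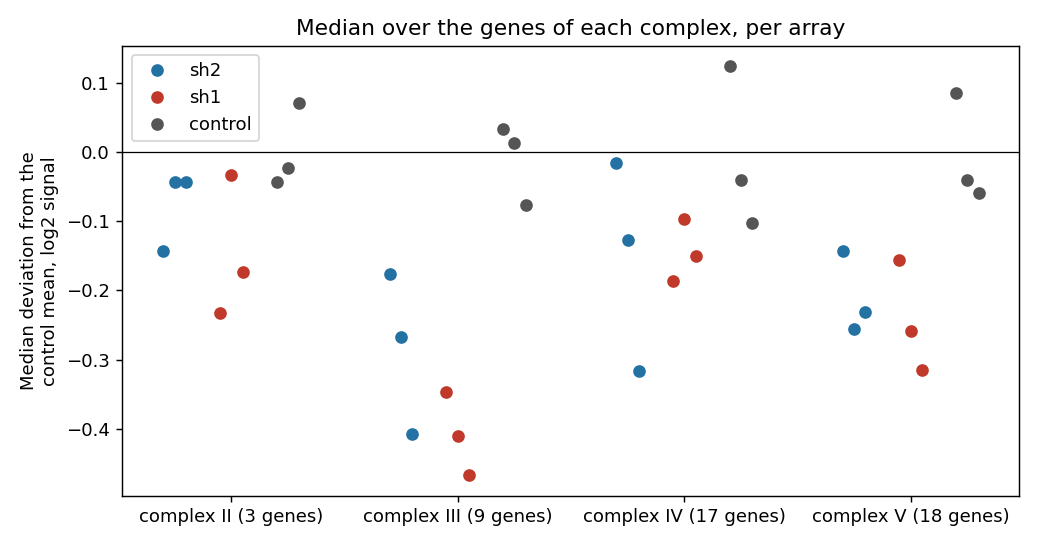
Median deviation of the members of each complex from their control means, in log2 units, with a point for each of the 9 arrays and sh2, sh1 and control from left to right. The shRNA arrays lie below the control arrays for complexes III and V, and reach or overlap with them for complexes II and IV. Complex IV is drawn with its tissue-restricted isoforms.

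The direct comparison of sh2 with sh1 asks whether the lines differ from each other, without the control. It called 4 of the 47 members, of which 2 were higher and 2 lower in sh2. These are shares under the 5.73% and 5.57% of all rows. ATP5F1C was higher in sh2 than in sh1 by 1.19 ± 0.14 (SE; limma, adjusted p = 0.00017), and ATP5MC2 by 0.94 ± 0.20 (adjusted p = 0.0106). COX5A was lower in sh2, with a difference of -0.69 ± 0.12 (adjusted p = 0.00241), and so was COX7A2L, with -0.55 ± 0.13 (adjusted p = 0.0189). For each of the 4 the arrays of the lines did not overlap. The COX7A2L call was lost without sh1 array 2 (adjusted p = 0.0652) or sh2 array 1 (0.0657). For the other 43 members the lines were not shown to differ, including those called in only 1 line against the control. UQCR10, for example, differed between sh2 and sh1 by 0.15 ± 0.12 (adjusted p = 0.513).

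Paralogs are set side by side here. The subunit c genes differed between sh2 and sh1 by 0.31 (ATP5MC1), 0.94 (ATP5MC2) and -0.04 (ATP5MC3), and the second was the one called. COX4I1 changed by -0.58 in sh1, while COX4I2, the form known from lung and hypoxia, was near background and differed by -0.25 (adjusted p = 0.295). COX6A1 differed by -0.02 in sh1 and 0.06 in sh2, and its heart and muscle form COX6A2 by 0.09 and 0.20. COX6B1 differed by -0.18 in sh1 and -0.16 in sh2, against the COX6B2 values given above. COX7A2 differed by -0.15 in sh1 and -0.25 in sh2, and its heart and muscle form COX7A1 by -0.42 (adjusted p = 0.0551) and 0.01. The differences between paralogs were not tested, and COX4I2 and COX6B2 had control means under the lower quartile of all rows.

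To show how far the genes around a member moved with it, each member was set beside the 40 nearest expressed genes on its chromosome. Across the 47 members, the change of a member and the median change of its neighbours correlated at r = 0.64 in sh1 and 0.62 in sh2, given as a description since members on 1 chromosome can share neighbours. The neighbours of ATP5F1C on chromosome 10 were at -0.96 (sh1) and 0.11 (sh2) as a median, and those of COX5A on chromosome 15 were at 0.67 (sh1) and 0.20 (sh2). After the neighbours were subtracted on each array, ATP5F1C was still lower in sh1 (-0.45, limma, adjusted p = 0.03), while COX5A differed by -0.07 (adjusted p = 0.748). The difference between sh2 and sh1 was then 0.12 for ATP5F1C (adjusted p = 0.641) and -0.22 for COX5A (adjusted p = 0.287).

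UQCR11, COX7B and ATP5IF1 remained called in both lines after this subtraction. UQCR11 was at -0.75 (limma, adjusted p = 0.00151, sh1) and -0.53 (adjusted p = 0.0157, sh2), with neighbours at -0.20 and -0.24. COX7B was at -0.54 (adjusted p = 0.0138) and -0.58 (adjusted p = 0.0102), with neighbours at -0.06 and 0.01. ATP5IF1 was at 0.41 (adjusted p = 0.049) and 0.65 (adjusted p = 0.00531), with neighbours at 0.09 and 0.01. UQCRQ, whose neighbours on chromosome 5 were at -0.35 and -0.67, was not called after it, at -0.43 (adjusted p = 0.0824) and -0.45 (adjusted p = 0.0803).

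Among the genes called in 1 line, SDHA in sh2 changed sign, with neighbours at -0.56 and a value of 0.17 after subtraction (limma, adjusted p = 0.381). ATP5MF and ATP5PD in sh2 were at -0.10 (adjusted p = 0.652) and -0.25 (adjusted p = 0.255), with neighbours at -0.33 and -0.26. ATP5MC1 and COX4I1 in sh1 were at -0.35 (adjusted p = 0.107) and -0.44 (adjusted p = 0.0708), with neighbours at -0.37 and -0.13. The calls of UQCR10, UQCRH, UQCRHL and ATP5F1A in sh1 and of UQCRB, COX7C and ATP5MC3 in sh2 held. In all, 12 members were lower and 1 higher in sh1 after subtraction, with 7 of the 10 earlier falls among them. In sh2, 7 were lower and 1 higher, with 5 of the 9 earlier falls among them. The member median was -0.27 in sh1 and -0.23 in sh2 after subtraction, against -0.19 in each line before it. Copy number was not measured, and its part in these values was not tested.

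**Figure D4:**
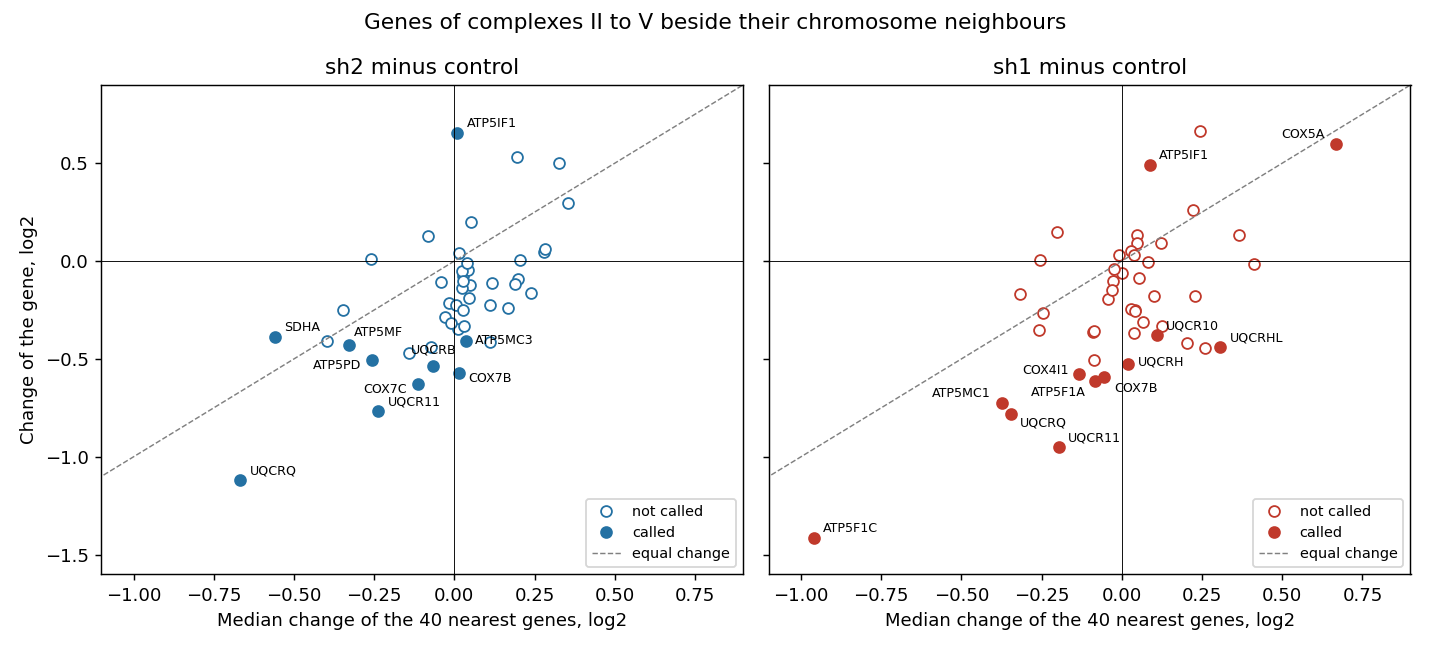
Change of each member against the median change of its 40 nearest expressed neighbours, both in log2 units against the control, for sh2 and sh1, with the line of equal values. ATP5F1C (-0.96) and COX5A (0.67) have the most shifted neighbours in sh1, while those of COX7B and ATP5IF1 lie near 0 in both lines. Filled points are members called at an adjusted p under 0.05.

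Genes that build or serve these complexes were read from lists set beside the members. Among assembly factors, SDHAF3 of complex II was lower in both lines, at -0.92 in sh1 and -0.76 in sh2 (limma, adjusted p = 0.000901 and 0.00396), the 1 of 4 that was called. LYRM7, which guides the iron-sulfur protein into complex III, fell by 0.90 in both lines (adjusted p = 0.00347 and 0.00393), while UQCC3 rose in sh1 (0.45, adjusted p = 0.0379), out of 6. The neighbours of LYRM7 on chromosome 5 were at -0.32 in sh1 and -0.63 in sh2, and after their subtraction its change was -0.57 (adjusted p = 0.0283) and -0.27 (adjusted p = 0.307). SDHAF3 in sh2 was then at -0.39 and not called (adjusted p = 0.0791). Of 23 measured factors of complex IV, 5 fell and 1 rose in each line. These are 21.7% lower and 4.35% higher, against 9.0% (sh1) and 7.98% (sh2) of all rows lower and 9.76% and 8.33% higher. The list as a whole was not shifted as far, with medians of 0.04 in sh1 and -0.10 in sh2. Changes were above 0 for 12 factors in sh1 and 10 in sh2. HIGD2A, which acts in assembly of complex IV and its supercomplexes, had 10.60, 10.52 and 10.18 in sh1 and 10.96, 10.71 and 10.11 in sh2, against 12.07, 11.76 and 11.58 in the control. It lay below the control by more than most members, with changes of -1.37 (adjusted p = 0.000952) and -1.21 (adjusted p = 0.00263). COA3, COX11 and PET100 also fell in both lines, with changes between -0.81 and -0.60. With neighbours subtracted, HIGD2A and COA3 stayed called in both lines, while COX11 in sh1 (-0.42, adjusted p = 0.0603) and PET100 in sh2 (-0.25, adjusted p = 0.189) were not called. For complex V, ATPAF1, a chaperone of the beta subunit, fell in sh1 (-0.84, adjusted p = 0.000339) and differed by -0.25 in sh2 (adjusted p = 0.187), ATPAF2, a chaperone of the alpha subunit, fell in sh2 (-0.86, adjusted p = 0.021), and ATP23 rose in sh1 (0.51, adjusted p = 0.0121), out of 4. With neighbours subtracted, the ATPAF1 and ATPAF2 calls held, and ATP23 was at 0.23 (adjusted p = 0.236).

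Of 33 complex I subunits, 7 fell and 2 rose in sh1 and 6 fell and 0 rose in sh2 (2 were higher at an unadjusted p under 0.05), with medians of -0.18 and -0.17, close to the medians of the members. The falls are 21.2% and 18.2% of the list, against 9.0% and 7.98% of all rows. NDUFA2, NDUFB6, NDUFB7 and NDUFA11 fell in both lines. With neighbours subtracted, NDUFB7 in sh2 was the 1 of these 8 calls that held (-0.54, limma, adjusted p = 0.0292), and the others had adjusted p = 0.115 to 0.495. The median over all 33 subunits was then -0.19 in sh1 and -0.24 in sh2. Of 74 mitochondrial ribosomal proteins, 9 fell and 8 rose in sh1 and 15 fell and 5 rose in sh2, with medians of -0.07 and -0.14. These are 12.2% lower and 10.8% higher in sh1, near the shares of all rows (9.0% and 9.76%), and 20.3% lower and 6.76% higher in sh2 (7.98% and 8.33% of all rows). Of 14 electron carriers and coenzyme Q genes, 1 fell and 1 rose in sh1 and 1 fell and 2 rose in sh2. Each count of 1 gene is 7.14% of the list, near the shares of all rows. The 2 rises in sh2 are 14.3% of the list, against 8.33% of all rows. CYCS, the gene of cytochrome c, had 15.24, 15.33 and 15.24 in sh1 and 14.89, 14.47 and 14.73 in sh2, against 15.35, 15.19 and 15.24 in the control, so that sh2 stood below both.

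Of 12 measured regulators of respiratory genes, 3 fell and 1 rose in sh1 and 1 fell and 1 rose in sh2. Each count of 1 gene is 8.33% of the list, near the shares of all rows. The 3 falls in sh1 are a larger share of the list than the 9.0% of all rows that fell in sh1. NRF1, a transcription factor of respiratory genes, had 9.40, 9.02 and 8.72 in sh1 and 8.70, 9.0 and 8.67 in sh2, against 8.24, 8.21 and 8.52 in the control. It rose in sh1 (0.72 ± 0.18, SE; limma, adjusted p = 0.0154), and its change of 0.47 in sh2 was not called (adjusted p = 0.112). GABPA, the ETS factor, rose in sh2 (0.58, adjusted p = 0.0234), with 0.42 in sh1 (adjusted p = 0.0854). POLRMT, the mitochondrial RNA polymerase, fell in both lines (-0.57 and -0.73, adjusted p = 0.0406 and 0.0144), and MYC fell in sh1 (-1.18, adjusted p = 0.000696). With neighbours subtracted, MYC in sh1 and POLRMT in sh2 stayed called, while NRF1 in sh1 (0.55, adjusted p = 0.0596), GABPA in sh2 (0.43, adjusted p = 0.071) and POLRMT in sh1 (-0.37, adjusted p = 0.0936) were not called. As shares, 21.3% of the members fell in sh1 and 19.1% in sh2, against 21.2% and 18.2% of complex I subunits.

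**Figure D5:**
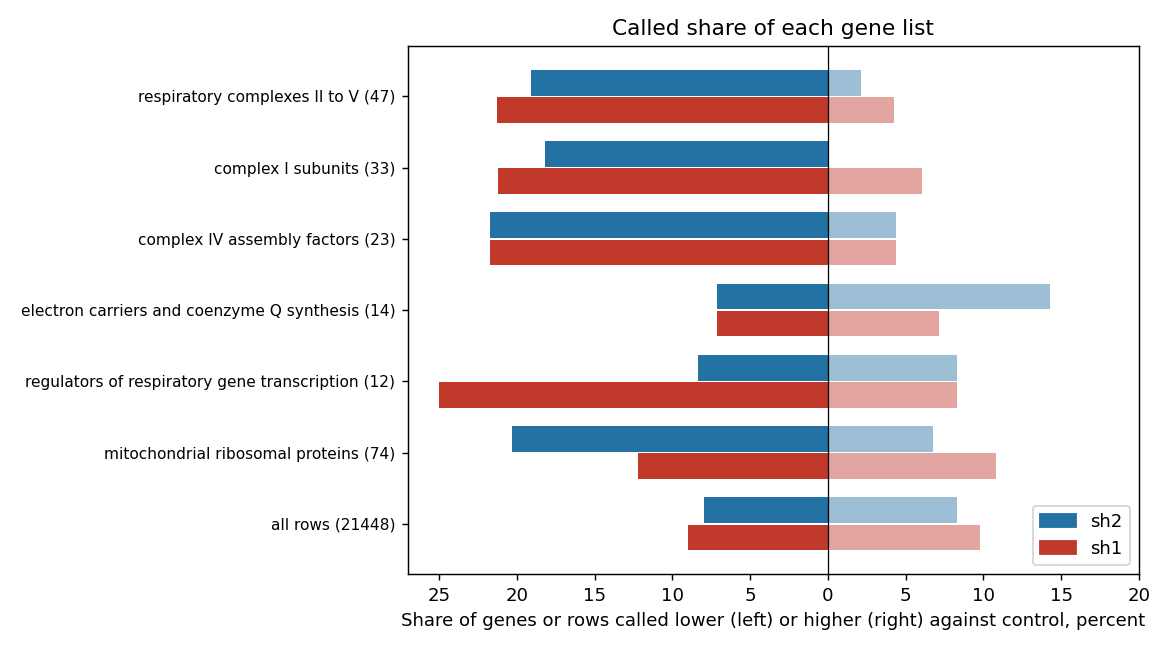
Percent of each gene list that fell or rose at an adjusted p under 0.05, for sh2 and sh1, with all 21448 rows for reference. The members stand at 19.1% lower in sh2 and 21.3% in sh1, and all rows at 7.98% and 9.0%.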

How the data were processed

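RNA of AsPC-1 cells was labelled with biotin from 100 ng per sample for 1-colour arrays, per the labels' protocols. The deposited log2 signals were made by the authors with Transcriptome Analysis Console, per the submitters' processing notes; no source used here gives its version or settings. Values (2.03 to 18.57) were read as log2 from their range and used unscaled. Detection calls were not used here.

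Group means over 9 arrays were fitted with limma 3.58.1 (R 4.3.3) over 21448 rows, with Benjamini-Hochberg adjustment over all rows and calls at an adjusted p under 0.05. Errors are model SE or SD over 3 arrays. The script was tested on simulated data. Arrays were not paired by number: deviations of same-numbered arrays correlated at -0.0358 to 0.180, with 2 of 9 pairs over 0.1. Both were pairs of arrays numbered 1, control with sh2 (0.180) and sh1 with sh2 (0.122). Array 1 of the control and array 1 of sh1 correlated at 0.0856. Neighbour values are medians over the 40 nearest genes above the median of row means, by RefSeq positions in GRCh38.p14. Alternatives were quantile scaling, median centring, a filter, another prior, only the compared groups, a block by number, a stricter threshold, neighbour subtraction and leaving out each array. Called members are named with every array's value. The members, lists and naming rule were chosen with earlier results of these data known. Levels of different probes were not ranked.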

Additional observations from a re-analysis of the deposited data

Results flagged for a closer look

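In 4 members the shRNA lines differed from each other in the direct test of sh2 minus sh1 (limma, adjusted over all rows). These are 2 higher and 2 lower of 47 members, shares under the 5.73% and 5.57% of all rows. The difference was 1.19 for ATP5F1C and 0.94 for ATP5MC2, both higher in sh2, and -0.69 for COX5A and -0.55 for COX7A2L, both lower in sh2. The arrays of the lines did not overlap for any of the 4. With chromosome neighbours subtracted, the difference was 0.12 for ATP5F1C (limma, adjusted p = 0.641) and -0.22 for COX5A (adjusted p = 0.287), neither of them called, while ATP5MC2 (adjusted p = 0.0119) and COX7A2L (adjusted p = 0.00926) stayed called. Groups of 3 arrays are too small for a test of single outlying arrays.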

How the results depend on the processing

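Over all alternatives, 357 of 442 values of called members kept their call and direction, 83 lost the call and 2 changed sign: with neighbours subtracted, COX5A in sh1 was -0.067 and SDHA in sh2 was 0.17. Of 1946 values of members not called, 45 were called under an alternative. Falls numbered 16 in sh1 without rows under the lower quartile. With an intensity trend and robust prior there were 4 rises and 16 falls in sh1, 3 and 14 in sh2, and 4 members higher in sh2 than in sh1. With neighbours subtracted there was 1 rise in sh1, the member median in sh1 was -0.27, the sh2 medians were 0.027 for complex II and -0.22 for complex IV, 1 member was lower in sh2 than in sh1, and complex III had a median difference between them of -0.0006. At an adjusted p under 0.01, 2425, 1921 and 1331 rows were called in sh1, sh2 and sh2 minus sh1, with 1 rise and 5 falls among members in sh1, 3 falls in sh2, and 1 higher and 1 lower in sh2 than in sh1. With the replicate block, rises and falls numbered 2 and 11 for sh1, against 2 and 8 for sh2. Under that block COX8A (adjusted p = 0.0337) and ATP5MC2 (0.0407) were lower in sh1, and ATP5MC2 was higher (0.0282) and ATP5ME lower (0.0448) in sh2, while UQCR10 in sh1 (0.0508) and ATP5MC3 (0.0528) and SDHA (0.0666) in sh2 were not called. The cause of these shifts was not tested.

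Leaving out 1 array gave 3044 to 4047 called rows in sh1, 2455 to 3587 in sh2 and 1803 to 2271 in sh2 minus sh1. Members that rose in sh1 numbered 1 to 3 and those that fell 5 to 9, those that fell in sh2 numbered 5 to 10, and those lower in sh2 than in sh1 numbered 1 to 2. In sh1 the member median was -0.29 to -0.15 and that of complex II -0.19 to -0.033. In sh2 the median was -0.22 to -0.01 for complex IV and -0.27 to -0.14 for complex V. The sh2 minus sh1 median was -0.048 to 0.052 over the members and -0.12 to 0.15 for complex II. With 3 arrays of 1 clone per group, signal near background and the number of arrays limit what small changes could be called.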

Other observations

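Array 1 was the highest of its group in all 3 groups for 8 of the 47 members (17%), against 4.89% of all rows. These were UQCR10, UQCR11, COX7B, COX8A, ATP5F1C, ATP5F1D, ATP5MC1 and ATP5ME. ATP5F1D showed the widest gap, with 9.76, 9.15 and 9.0 in sh1 and 9.89, 8.84 and 8.76 in sh2, against 9.64, 8.98 and 8.84 in the control. Array 2 was the highest in all 3 groups for 2 members (4.26%, against 3.63% of all rows) and array 3 for 0 (against 3.8%). What array 1 shares across groups is not given in the labels.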
